A study of Mus musculus with 4 samples.

Results

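The chromatin around 10 chemokine ligand genes was compared between microglia of WT and IRF8KO mice by ATAC-seq, in which the Tn5 transposase cuts accessible DNA. The genes were 6 of the CC family (Ccl2, Ccl3, Ccl4, Ccl6, Ccl9 and Ccl12) and 4 of the CXC family (Cxcl2, Cxcl9, Cxcl10 and Cxcl16). All peaks overlapping a gene body or the 10 kb on either side of it were taken, which gave 7 separate windows because neighbouring genes share windows. These windows held 212 peaks in the 4 libraries together. A peak with a −log10 q of at least 2 was called strict, and 178 of the 212 peaks were strict. Strict peaks of all libraries were merged into 155546 regions of the autosomes and X, of which 57 lay in the chemokine windows and form the subject here. The remaining 14 peaks that touched no region were weak, at 0.114 to 0.192 ppm. This unit, ppm, is used throughout for the height of a peak, its pileup of extended cut sites per 1000000 tags of the library.

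Each genotype was represented by 2 libraries of FACS-sorted microglia, the resident macrophages of the brain, labelled WT and IRF8KO. All mice were C57BL/6, untreated and 3 months old, and the cells were isolated without enzymes. The labels give neither the kind of Irf8 allele nor whether a deletion was limited to some cells. They do not say whether replicates came from separate mice, so p-values measure only the spread between these samples, which may be technical. Sequencing gave 46948938 and 48896408 tags in the WT libraries (replicates 1 and 2) and 78793572 and 66224648 in the IRF8KO libraries. Depth and tag size (50 bp in WT, 49 bp in IRF8KO) both followed genotype, and their part in the results cannot be told apart from it.

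Chemokines are small, mostly secreted proteins that bind G-protein-coupled receptors and direct the migration of leukocytes. CC and CXC ligands differ in the spacing of their first cysteines. In the brain, microglia and border macrophages are sources of several of them during inflammation. IRF8, an interferon regulatory factor, is a transcription factor of myeloid cells. It binds DNA with PU.1 at composite ETS-IRF elements and with other IRF proteins at interferon-stimulated response elements (ISRE). NF-kB, AP-1 and CEBP factors are known regulators of inflammatory chemokine genes.

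Of the regions called different or specific to a genotype, the 6 tallest in any library lay in the Cxcl2 and Ccl3 windows, and their sequences are shown because the main increases in IRF8KO rest on them. Each is the GRCm38 reference within 100 bp of the summit. A signed distance in a region's name is that from the annotated gene start to the summit, in the direction of the gene. Capitals mark a match on either strand to the ETS-IRF letters (GGAA and GAAA with 2 free bases between them) or to the CEBP letters (TTGC and AA with 2 free bases between them), and a sequence without capitals holds no match to any of the 5 motifs searched.
Cxcl2 promoter (chr5:90903505-90903705, plus strand): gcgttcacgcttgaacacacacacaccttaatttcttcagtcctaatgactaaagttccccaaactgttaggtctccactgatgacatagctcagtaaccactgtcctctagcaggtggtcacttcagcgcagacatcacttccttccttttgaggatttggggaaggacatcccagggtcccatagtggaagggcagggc
Cxcl2 -5.2 kb (chr5:90898543-90898743, plus strand): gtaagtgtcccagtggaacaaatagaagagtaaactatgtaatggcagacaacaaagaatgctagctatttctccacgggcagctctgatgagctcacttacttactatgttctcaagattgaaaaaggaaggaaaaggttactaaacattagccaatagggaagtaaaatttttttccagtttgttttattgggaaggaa
Cxcl2 -6.3 kb (chr5:90897500-90897700, plus strand): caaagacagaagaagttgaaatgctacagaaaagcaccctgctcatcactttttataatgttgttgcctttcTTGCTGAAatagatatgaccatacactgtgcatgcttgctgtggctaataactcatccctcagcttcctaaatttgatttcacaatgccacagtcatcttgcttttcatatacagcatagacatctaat
Cxcl2 -9.4 kb (chr5:90894324-90894524, plus strand): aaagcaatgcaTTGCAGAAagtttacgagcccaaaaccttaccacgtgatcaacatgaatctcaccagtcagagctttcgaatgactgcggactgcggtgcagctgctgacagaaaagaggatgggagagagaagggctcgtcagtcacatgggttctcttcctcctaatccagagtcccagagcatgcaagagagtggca
Ccl3 promoter (chr11:83649523-83649723, plus strand): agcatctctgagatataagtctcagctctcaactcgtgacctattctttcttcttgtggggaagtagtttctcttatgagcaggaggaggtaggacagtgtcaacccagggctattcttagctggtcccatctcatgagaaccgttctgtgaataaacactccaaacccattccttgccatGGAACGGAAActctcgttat
Ccl3 +9.0 kb (chr11:83640277-83640477, plus strand): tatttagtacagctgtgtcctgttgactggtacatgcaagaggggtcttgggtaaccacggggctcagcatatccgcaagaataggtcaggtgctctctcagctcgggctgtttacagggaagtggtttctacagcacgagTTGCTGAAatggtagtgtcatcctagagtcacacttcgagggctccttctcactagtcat
The Ccl3 promoter window held an ETS-IRF match 81 bp from its summit. A CEBP match lay in the windows of Ccl3 +9.0 kb, Cxcl2 -9.4 kb and Cxcl2 -6.3 kb.

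In the other direction, 2 of the 8 regions lower in IRF8KO or specific to WT held ETS-IRF matches close to their summits. These 2 lay near Cxcl16 and Ccl4. The Ccl6 promoter and Ccl6 -2.8 kb, which were lower as well, held neither ETS-IRF nor ISRE letters. The sites near Cxcl16 and Ccl4 were chosen after their values were seen. They are printed as 30 bases of the minus strand, with the match to ETS-IRF, or to ISRE (GAAA and GAAA with 2 free bases between them), in capitals.
Cxcl16 promoter ETS-IRF (chr11:70459929-70459958, minus strand): agcggtccagGGAAGTGAAAgcatcttgga
Ccl4 -3.5 kb ETS-IRF (chr11:83659029-83659058, minus strand): ccacggattgGGAAATGAAAccaaggaagc
Ccl4 -3.5 kb ISRE (chr11:83658986-83659015, minus strand): aagttcatcaGAAAAGGAAActcacttcac
The ETS-IRF match lay 8 bp from the summit at the Cxcl16 promoter and -6 bp from it at Ccl4 -3.5 kb, counting from the summit in the direction of the plus strand. Ccl4 -3.5 kb also held an ISRE match, -49 bp from the summit. A match is a description of the letters and was not tested for binding.

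Of the 57 regions, 30 held a strict peak in all 4 libraries, a share of 52.6% against 31.0% of all regions. Intergenic sequence held 34 of the summits, introns 16, UTRs 5, a coding exon 1 and a non-coding exon 1. The WT libraries had 42 and 44 strict peaks in the windows and the IRF8KO libraries 47 and 45. On average this was 43 ± 1.41 against 46 ± 1.41 (SD, n = 2 per genotype), or 3 more in IRF8KO (two-sided exact permutation test, p = 0.333, which is the lowest value that 2 against 2 libraries allow). The whole WT lists had 97473 and 98863 strict peaks and the whole IRF8KO lists 83996 and 95921, so the windows held 0.0431% and 0.0445% of them in WT and 0.0560% and 0.0469% in IRF8KO. With an equal height threshold of 0.192 ppm in every library, the difference was 1.5 (exact permutation p 0.667). When weak peaks in the windows were counted as well, the difference reversed to -2 (exact permutation p 0.667).

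Heights were compared on the log2 scale, as the highest ppm of any peak in a region. This comparison across lists assumes that pileup scales with tags. Of the 57 regions, 34 had a peak in every library and entered the limma fit, which was made over all 58550 such regions. A region with no peak in some library had no height and could not be fitted. Before centring, the median log2 height over all fitted regions was lower in IRF8KO by a difference of -0.30, and each log2 difference below is relative to that shift. Adjusted p-values are from limma with Benjamini-Hochberg adjustment over all 58550 regions.

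Of the 34 fitted chemokine regions, 7 (20.6%) were lower in IRF8KO at an adjusted p under 0.05, where the share over all fitted regions was 12.5%. Higher in IRF8KO were 5 (14.7%), close to the 13.3% over all fitted regions. The other 22 were not called. The median log2 difference was -0.04 over the chemokine regions and -0.0018 over all fitted regions. In uncentred ppm, both IRF8KO libraries lay below both WT libraries at 15 of the 34 chemokine regions, where 37.1% of all fitted regions did so. They lay above both WT libraries at 7 of the 34, where 11.9% of all fitted regions did so. Without the Cxcl2 window the counts were 15 below and 4 above, of 30 fitted regions. Without centring, the calls were 5 lower and 3 higher among the chemokine regions, and 3994 lower and 1643 higher over all regions in place of 7298 and 7816. Without IRF8KO replicate 2 the lower calls were 3 of 34, close to the 8.97% of all fitted regions then called lower. Without WT replicate 1 they were 4 of 34, against 8.49% of all fitted regions. The excess of lower calls was thus not seen without IRF8KO replicate 2.

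A region was WT-specific if both WT libraries held a strict peak there and the IRF8KO libraries no peak at all. There was 1 such chemokine region of 57 (1.75%), where 5.58% of all regions were WT-specific. IRF8KO-specific regions, the converse, numbered 3 (5.26%), where 3.86% of all regions were IRF8KO-specific. The 4 specific regions lay near Ccl6, Ccl9, Cxcl16 and Cxcl2. These shares rest on 1 and 3 regions and are no result about the chemokine genes. Leaving out a library, which leaves fewer libraries to meet the definition, gave 3 or 4 WT-specific regions without WT replicate 1 or 2. It gave 5, 5 and 9 IRF8KO-specific regions without WT replicate 2, IRF8KO replicate 1 and IRF8KO replicate 2. Near Ccl12, Cxcl9 and Cxcl10 no region was called or specific.

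**Figure D1:**
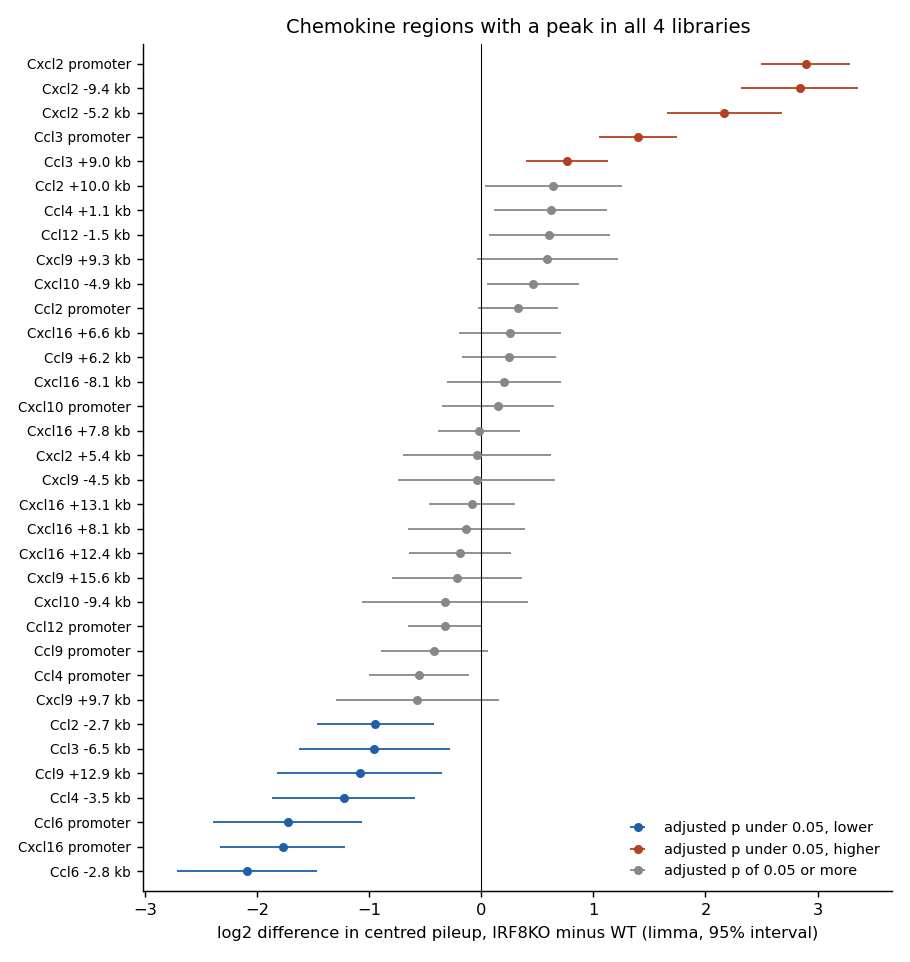
Log2 difference in centred pileup, IRF8KO minus WT, with its 95% interval from limma, for the 34 chemokine regions with a peak in all 4 libraries. Blue points are the 7 called lower, red points the 5 called higher and grey points the 22 not called; 3 of the 5 higher regions belong to Cxcl2.

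Cxcl2, a CXC ligand that attracts neutrophils through the receptor Cxcr2, had the greatest difference among the fitted chemokine regions. Its promoter region on chromosome 5 (90903049 to 90904012, summit intergenic just before the gene start) stood at 0.809 and 0.716 ppm in WT and at 4.04 and 5.19 in IRF8KO. The groups were far apart, with both IRF8KO libraries high. After centring, the height was 7.43-fold higher in IRF8KO, a log2 difference of 2.89 (SE 0.20, adjusted p = 8.67e-20, limma). The size of that p-value depends on the variance model: without a variance trend the adjusted p was 0.000157 (limma).

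Upstream of the promoter, 4 further regions were taller in the IRF8KO libraries. Cxcl2 -9.4 kb measured 0.383 and 0.286 ppm in WT and 1.55 and 2.39 in IRF8KO, a log2 difference of 2.84 (SE 0.26, adjusted p = 1.93e-14, limma). The region lies within 1 kb of the annotated start of Gm22816. Cxcl2 -5.2 kb measured 0.618 and 0.348 in WT and 1.19 and 2.39 in IRF8KO, a log2 difference of 2.17 (SE 0.26, adjusted p = 1.69e-10, limma). At both regions the IRF8KO libraries lay above both WT libraries. IRF8KO replicate 2 was the tallest of the 4.

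Cxcl2 -6.3 kb was IRF8KO-specific, with 1.498 and 2.07 ppm in IRF8KO replicates 1 and 2 and no peak in WT. The lowest peak listed in these windows stood at 0.149 in WT replicate 1 and at 0.123 in WT replicate 2, so both IRF8KO heights were far above the lowest that the WT lists hold. Cxcl2 -3.4 kb had a weak peak of 0.170 in WT replicate 1, none in WT replicate 2, and 1.37 and 2.30 in IRF8KO, so that it was neither fitted nor specific. Regions at +2.7 kb and +3.3 kb were listed only in IRF8KO replicate 1, the deepest library, at 0.622 and 0.444.

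Cxcl2 +5.4 kb, beyond the end of the gene, did not follow the others. It measured 0.511 and 0.389 in WT and 0.292 and 0.423 in IRF8KO, and the groups overlapped. Its log2 difference was -0.04 (SE 0.33, adjusted p = 0.955, limma). The plot of peak heights around Cxcl2 shows the taller regions from the promoter to -9.4 kb in both IRF8KO libraries.

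**Figure D2:**
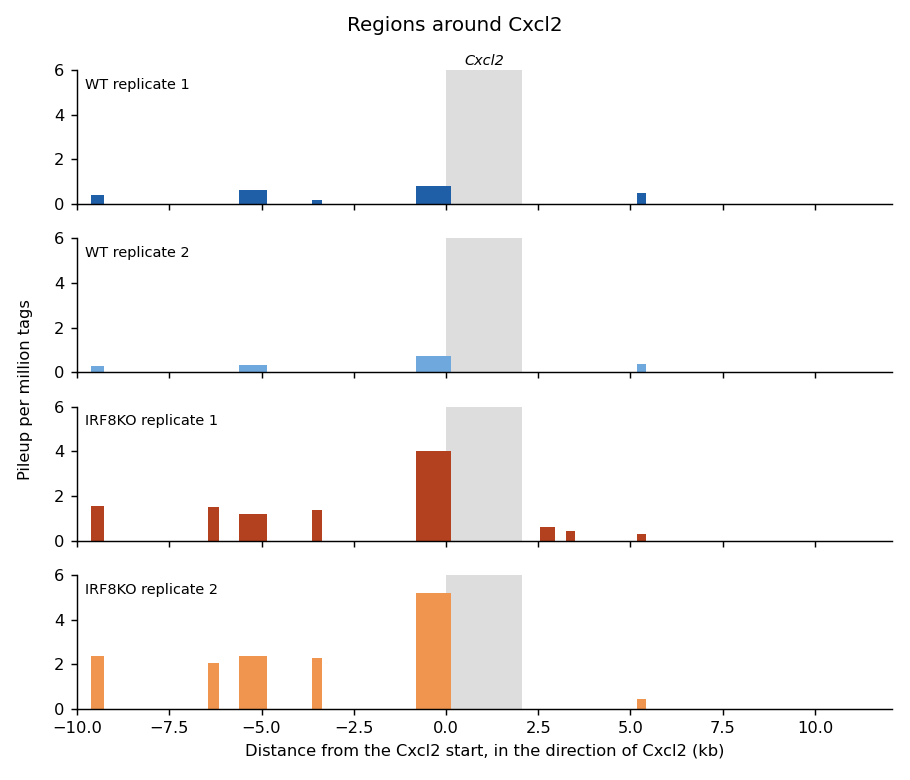
Height in ppm of each region (bars, drawn over the region's width) against distance from the Cxcl2 start in kb, 1 panel per library, with the gene body in grey. In both IRF8KO libraries 5 regions from -9.4 kb to the promoter stand above 1 ppm, and in WT no region reaches 1.

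MACS also gives a local background over 10 kb, read here as a multiple of the library's genome background. Around the Cxcl2 promoter summit it was 1.52 and 1.29 in WT and 7.15 and 8.82 in IRF8KO. At Cxcl2 -5.2 kb it was 1.65 and 1.37 in WT and 5.92 and 8.95 in IRF8KO. Both IRF8KO libraries were again above both WT libraries, by more than the spread within either genotype.

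With fold enrichment over that local background in place of pileup, the calls at the Cxcl2 promoter (log2 difference 0.59, adjusted p = 0.0836, limma) and at Cxcl2 -5.2 kb (0.05, adjusted p = 0.96) ended. Cxcl2 -9.4 kb stayed called at 0.90 (adjusted p = 0.0159, limma). The local background includes the peaks of these regions themselves, so it does not show whether sequence between them rose.

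**Figure D3:**
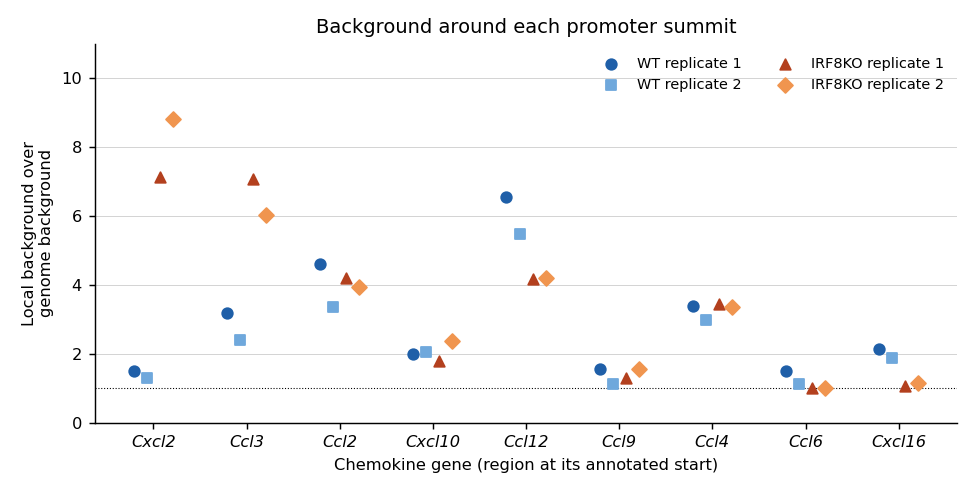
Local background over genome background at the promoter summit of 9 chemokine genes, 1 symbol per library; the dotted line at 1 is the genome background. The IRF8KO symbols stand above both WT symbols by a wide margin at Cxcl2 and Ccl3, and below them at Ccl6, Cxcl16 and Ccl12.

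Ccl3 and Ccl4 are neighbouring CC genes on chromosome 11, transcribed away from each other, and both encode inflammatory chemokines that attract leukocytes. The Ccl3 promoter region (83649122 to 83649924) measured 3.17 and 2.004 ppm in WT and 5.37 and 5.41 in IRF8KO. The groups did not overlap. It was 2.64-fold higher after centring, a log2 difference of 1.40 (SE 0.18, adjusted p = 8.67e-10, limma). Here too the local background was higher in IRF8KO, at 7.07 and 6.03 against 3.18 and 2.41 in WT.

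Ccl3 +9.0 kb, an intergenic region beyond the gene's end, measured 2.83 and 1.98 in WT and 3.01 and 3.53 in IRF8KO. Both IRF8KO values were higher by a small margin, a log2 difference of 0.76 (SE 0.18, adjusted p = 0.000633, limma). Both Ccl3 calls ended with fold enrichment as the height (log2 difference 0.17 and adjusted p = 0.735 at the promoter, 0.16 and 0.747 at +9.0 kb, limma) and without centring (1.095 and adjusted p = 0.0593 at the promoter, 0.46 and 0.593 at +9.0 kb). Ccl3 +9.0 kb was also lost without IRF8KO replicate 1 (0.56, adjusted p = 0.071, limma) and without a variance trend (0.76, adjusted p = 0.0621). Ccl3 +2.1 kb was listed only in IRF8KO, at 0.787 and 0.423, with a strict peak in 1 of the libraries.

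Between Ccl3 and Ccl4, 2 intergenic regions moved the other way. Ccl4 -3.5 kb, which holds the ETS-IRF and ISRE letters printed above, measured 0.852 and 0.777 in WT and 0.292 and 0.272 in IRF8KO. Replicates of each genotype were close together, and the log2 difference was -1.23 (SE 0.32, adjusted p = 0.0019, limma). It was lost without IRF8KO replicate 2 (-0.85, adjusted p = 0.0875, limma). Ccl3 -6.5 kb measured 0.618 and 0.532 in WT and 0.190 and 0.302 in IRF8KO, a log2 difference of -0.95 (SE 0.34, adjusted p = 0.027, limma). That call ended when any 1 library was left out (log2 difference -1.01 to -0.90, adjusted p 0.0888 to 0.162), without centring (-1.26, adjusted p = 0.121) and with fold enrichment (-0.46, adjusted p = 0.384).

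The Ccl4 promoter measured 2.24 and 1.43 ppm in WT and 0.863 and 1.13 in IRF8KO. Both IRF8KO libraries were lower, but WT replicate 1 stood apart from WT replicate 2 and the log2 difference of -0.55 (SE 0.22, 95% interval -0.997 to -0.106) missed the threshold (adjusted p = 0.0592, limma). It passed with fold enrichment (-0.73, adjusted p = 0.0411) and with a pseudocount of 0.1 (-0.54, adjusted p = 0.046). An intron region, Ccl4 +1.1 kb, overlapped between genotypes at 1.15 and 0.614 in WT and 0.850 and 1.28 in IRF8KO (log2 difference 0.62, SE 0.25, adjusted p = 0.0623, limma).

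**Figure D4:**
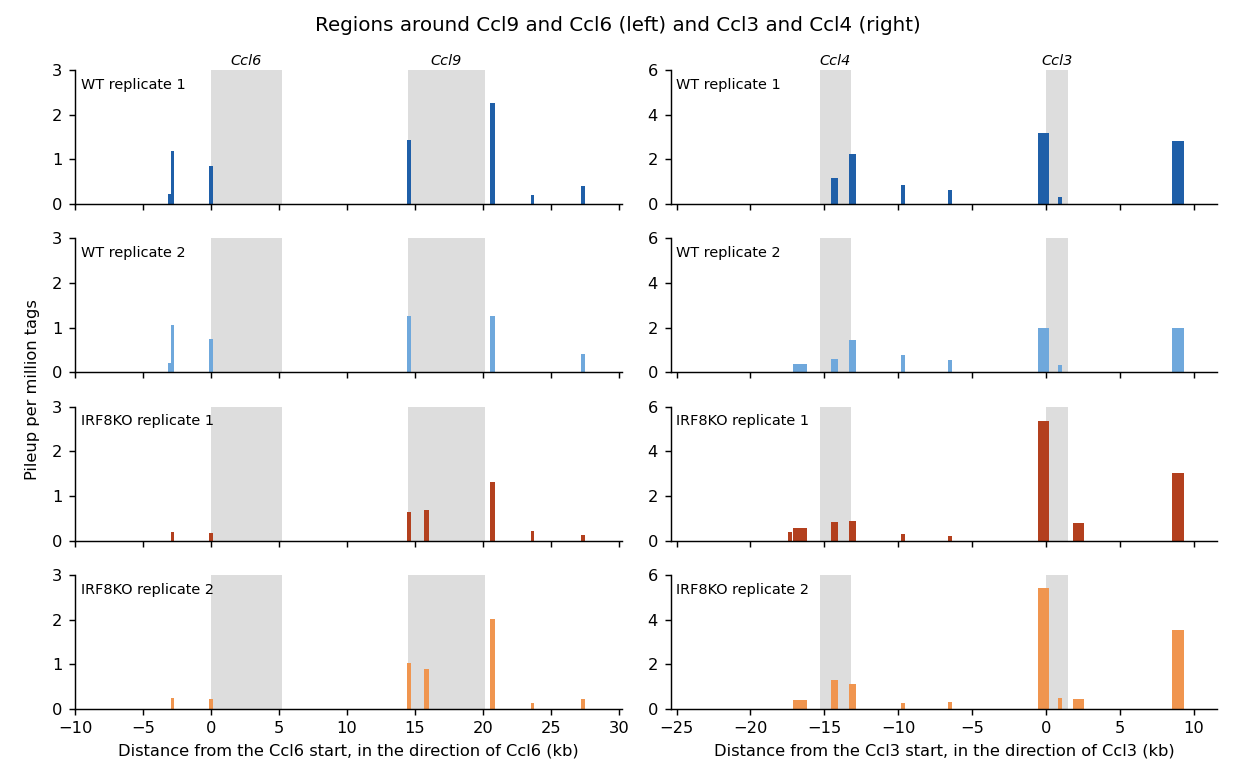
Height in ppm of each region against distance in kb from the Ccl6 start (left) and the Ccl3 start (right), each in the direction of that gene, 1 row per library, with gene bodies in grey. On the left the bars at -2.8 kb and at the Ccl6 start shrink in IRF8KO to 0.242 or less; on the right the Ccl3 promoter bar stands at 5.37 and 5.41 in IRF8KO.

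Ccl6 and Ccl9 are neighbouring mouse CC genes whose proteins bind Ccr1. The Ccl6 promoter region (chromosome 11, 83592952 to 83593211, in the UTR) measured 0.852 and 0.736 ppm in WT and 0.178 and 0.211 in IRF8KO. The groups did not overlap, and the IRF8KO libraries were low. It was 3.31-fold lower in IRF8KO after centring, a log2 difference of -1.73 (SE 0.33, adjusted p = 2.6e-05, limma).

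Ccl6 -2.8 kb had the most negative log2 difference among the fitted chemokine regions. It measured 1.19 and 1.06 in WT and 0.190 and 0.242 in IRF8KO, a log2 difference of -2.09 (SE 0.31, adjusted p = 1.01e-07, limma). Next to it, Ccl6 -3.1 kb was WT-specific but weak, at 0.234 and 0.205, and had no peak in IRF8KO. It was no longer strict in both WT libraries at a −log10 q of 5. These regions also lie in the transcript E230016K23Rik. ATAC-seq does not show which of the overlapping genes a region belongs to.

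The Ccl9 promoter measured 1.43 and 1.27 in WT and 0.647 and 1.03 in IRF8KO. Before centring the IRF8KO libraries were lower, but the log2 difference of -0.42 (SE 0.24, 95% interval -0.89 to 0.06) was not called (adjusted p = 0.214, limma). Ccl9 +1.4 kb, in the Ccl9 intron, was IRF8KO-specific at 0.685 and 0.891. Ccl9 +6.2 kb, the tallest region near Ccl9, measured 2.26 and 1.27 in WT and 1.32 and 2.01 in IRF8KO. Its groups overlapped, with a log2 difference of 0.25 (SE 0.21, adjusted p = 0.442, limma).

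Ccl9 +12.9 kb measured 0.405 and 0.409 in WT and 0.114 and 0.211 in IRF8KO, a log2 difference of -1.08 (SE 0.37, adjusted p = 0.0209, limma). This call ended when any 1 library was left out (log2 difference -1.25 to -0.92, adjusted p 0.0511 to 0.205) and with a pseudocount of 0.1 (-0.71, adjusted p = 0.051). The Ccl6 and Ccl9 promoters lie in the same window, and their local backgrounds did not show the rise seen at Ccl3. At the Ccl6 promoter it was 1.52 and 1.12 in WT and 1 and 1 in IRF8KO.

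Cxcl16 is a membrane-bound chemokine that also acts as a scavenger receptor, and its receptor is Cxcr6. Its promoter region (chromosome 11, 70459381 to 70460087) measured 1.64 and 1.25 ppm in WT and 0.317 and 0.362 in IRF8KO. The groups were far apart and the replicates close. The region was 3.42-fold lower in IRF8KO after centring, a log2 difference of -1.77 (SE 0.28, adjusted p = 3.51e-07, limma). The same region holds the start of Zmynd15, transcribed the other way, so that the promoters of the neighbours were not separated. With fold enrichment as the height the log2 difference was -1.11 (adjusted p = 0.000496, limma).

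No other fitted region around Cxcl16 was called. Cxcl16 +7.8 kb, the tallest in its window and in a Med11 coding exon, measured 3.26 and 2.70 in WT and 2.20 and 2.55 in IRF8KO. Relative to the median shift its log2 difference was -0.02 (SE 0.18, 95% interval -0.39 to 0.34, adjusted p = 0.956, limma). Cxcl16 -10 kb was IRF8KO-specific at 0.444 and 0.347. Cxcl16 -8.8 kb was listed in the WT libraries only, at 0.234 and 0.184, with a strict peak in 1 of them. Regions in 1 WT library alone lay at +3.1 kb (0.532, WT replicate 1) and -6.5 kb (0.245, WT replicate 2).

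Ccl2 and Ccl12 are monocyte-attracting ligands of Ccr2 and lie near each other on chromosome 11. The Ccl2 promoter measured 3.56 and 2.41 ppm in WT and 2.79 and 3.19 in IRF8KO. The groups overlapped, and the log2 difference was 0.33 (SE 0.18, 95% interval -0.03 to 0.69, adjusted p = 0.189, limma). Ccl2 -2.7 kb measured 1.62 and 0.982 in WT and 0.444 and 0.634 in IRF8KO. Each IRF8KO value lay below both WT values, a log2 difference of -0.94 (SE 0.26, adjusted p = 0.00381, limma). That call ended without WT replicate 1 (-0.74, adjusted p = 0.149), without IRF8KO replicate 2 (-0.88, adjusted p = 0.0563) and without centring (-1.25, adjusted p = 0.0953). Both regions also lie in an intron of Gm17268.

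The 3 regions just downstream of Ccl2 were weak and listed in IRF8KO libraries only. Ccl2 +2.5 kb stood at 0.444 and 0.302, Ccl2 +3.7 kb at 0.279 and 0.362, and Ccl2 +2.2 kb at 0.368 in replicate 1 alone. None had a strict peak in both libraries. Local background at these summits was 3.67 to 4.14 times the genome background in IRF8KO. Whether the lower depth of the WT libraries kept such peaks off their lists was not tested.

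The Ccl12 promoter was the tallest of the 9 promoter regions in WT, at 5.99 and 4.50, and measured 3.17 and 3.56 in IRF8KO. Both IRF8KO libraries were lower before centring. The log2 difference was -0.32 (SE 0.17, 95% interval -0.65 to 0.01) and was not called (adjusted p = 0.157, limma). Without IRF8KO replicate 1 it passed, at -0.56 (adjusted p = 0.0315, limma), but without IRF8KO replicate 2 it was -0.08 (adjusted p = 0.758). With fold enrichment as the height it turned to 0.04 (adjusted p = 0.951, limma).

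Cxcl9 and Cxcl10 are interferon-inducible ligands of Cxcr3, and their windows on chromosome 5 meet. Cxcl9 was the only member with no region within 1 kb of its start, in any library, and no region lay in its gene body. The tallest region near it, Cxcl9 +15.6 kb, measured 0.831 and 0.614 in WT and 0.381 and 0.649 in IRF8KO, and the groups overlapped. Its log2 difference was -0.22 (SE 0.29, 95% interval -0.80 to 0.36, adjusted p = 0.66, limma).

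The Cxcl10 promoter measured 1.21 and 0.818 in WT and 0.635 and 1.27 in IRF8KO. Its IRF8KO replicates differed more than the genotypes, with a log2 difference of 0.15 (SE 0.25, 95% interval -0.35 to 0.65, adjusted p = 0.728, limma). Cxcl10 -4.9 kb, in an Art3 intron, was taller, at 1.68 and 1.64 in WT and 1.41 and 2.43 in IRF8KO. Its groups overlapped too (log2 difference 0.46, SE 0.20, 95% interval 0.05 to 0.87, adjusted p = 0.0897, limma). The intervals at both Cxcl10 regions do not reach the size of the Cxcl2 or Ccl6 differences.

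Across the 10 genes, 9 had a promoter region, and all 9 were strict in all 4 libraries. After centring, those of Cxcl2 and Ccl3 were higher in IRF8KO, those of Cxcl16 and Ccl6 were lower, and the other 5 were not called. In WT the tallest promoter was that of Ccl12, followed by Ccl2 and Ccl3, whose values overlapped, and the lowest were those of Ccl6 and Cxcl2, which overlapped as well. In IRF8KO the tallest was that of Ccl3, followed by Cxcl2, and the values of neither overlapped those of Ccl12 and Ccl2 that came next. The lowest in IRF8KO were those of Cxcl16 and Ccl6.

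**Figure D5:**
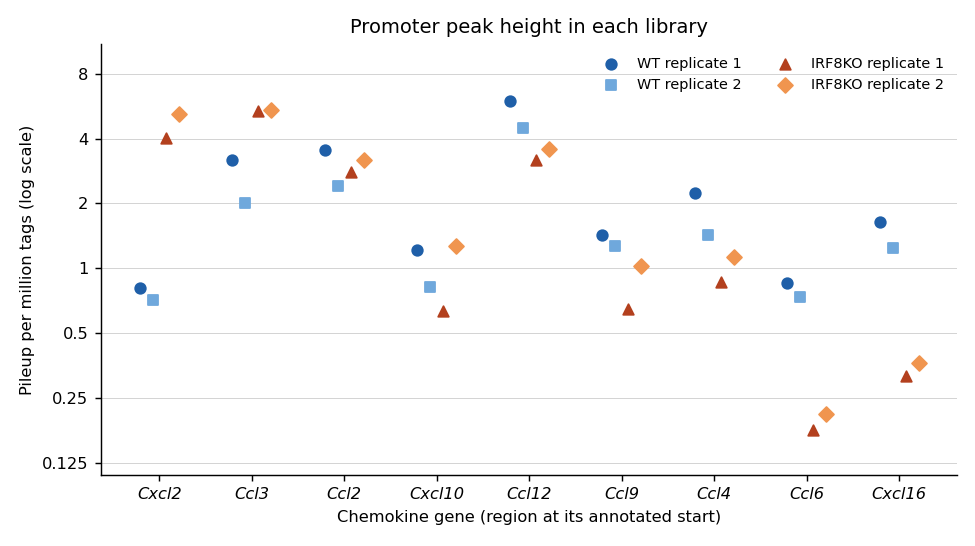
Promoter peak height in ppm (log axis) for the 9 chemokine genes with a region at their start, 1 symbol per library. Cxcl2 lies at 0.716 to 0.809 in WT and 4.04 to 5.19 in IRF8KO, while Cxcl16 falls from 1.25 to 1.64 in WT to 0.317 to 0.362 in IRF8KO.

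Motif letters were searched within 100 bp of each summit on both strands, a window of 201 bp. The ETS-IRF letters were found in 6 of 57 chemokine windows (10.5%), against 4.30% of all 155546 windows. Those of ISRE were found in 4 (7.02% against 3.12%), NF-kB in 5 (8.77% against 4.84%), AP-1 (TGACTCA or TGAGTCA) in 5 (8.77% against 5.91%) and CEBP in 9 (15.8% against 9.54%). The ETS-IRF and ISRE letters differ at the second base only. These are counts, with no test.

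The ETS-IRF windows were those of the promoters of Cxcl16, Ccl3 and Ccl4 and of Cxcl16 -8.1 kb, Ccl2 +10 kb and Ccl4 -3.5 kb. Of the 8 regions lower or WT-specific, 2 held ETS-IRF, 1 held ISRE and 0 held CEBP letters. Of the 8 regions higher or IRF8KO-specific, 5 held CEBP, 1 held ETS-IRF and 0 held ISRE letters. The 5 with CEBP were Cxcl2 -9.4 kb, Cxcl2 -6.3 kb, Ccl3 +9.0 kb, Ccl9 +1.4 kb and Cxcl16 -10 kb. Both sets of 8 regions were picked by their own heights. Motif shares over all called or specific regions of the series, by direction, are not given here. The split by direction is therefore no result about the chemokine genes. The Cxcl10 promoter window held NF-kB matches and an AP-1 match. No match says only that these letters are absent from the window.

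Of 26 other chemokine ligand genes, 22 had a region and their 89 regions included 45 that were fitted. Of the fitted ones 6 (13.3%) were lower and 9 (20%) higher, against 12.5% and 13.3% over all fitted regions. Of the 89, 8 (8.99%) were WT-specific and 10 (11.2%) IRF8KO-specific, against 5.58% and 3.86% over all regions. In the CXC gene cluster of chromosome 5 that also holds Cxcl2 lay 2 of the 9 higher regions. A region shared by the Cxcl3 and Cxcl15 windows (90789364 to 90790133) measured 0.256 and 0.286 in WT and 1.24 and 2.19 in IRF8KO, a log2 difference of 2.91 (SE 0.28, adjusted p = 1.29e-13, limma). One in the windows of Pf4, Ppbp and Cxcl5 (90771284 to 90772727) measured 0.447 and 0.327 in WT and 1.29 and 1.89 in IRF8KO, a log2 difference of 2.33 (SE 0.27, adjusted p = 3.74e-11, limma). An IRF8KO-specific region near Cxcl1 (90881698 to 90882046) stood at 0.520 and 1.40, and another near Cxcl3 (90783742 to 90783985) at 0.368 and 0.423. A WT-specific region in the Cxcl3 and Cxcl15 windows (90786123 to 90786226) went the other way, at 0.213 and 0.184. Cxcl1, Cxcl3 and Cxcl5 encode neutrophil-attracting ligands of Cxcr2, and Pf4 encodes a platelet chemokine. At the 2 cluster regions called higher both IRF8KO libraries were the taller.

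Outside that cluster, Cxcl11, the third ligand of Cxcr3, had a region at -3.1 kb that was higher in IRF8KO (0.554 and 0.368 in WT, 1.27 and 2.34 in IRF8KO; log2 difference 2.24, SE 0.26, adjusted p = 4e-11, limma) and a WT-specific one at -2.5 kb (0.639 and 0.839). Of the ligands of Ccr4, Ccl22 had a lower region at its start (0.745 and 0.818 in WT, 0.165 and 0.151 in IRF8KO; log2 difference -2.002, adjusted p = 3.76e-06, limma). Ccl17 had a lower one before its start (1.02 and 0.920 in WT, 0.203 and 0.196 in IRF8KO; -1.98, adjusted p = 1.14e-06, limma). Further regions named by size were lower at Ccl17 (-1.10), Cxcl17 (-1.09) and Cxcl12 (-0.96) and higher at Ccl25, at 45.1 kb (3.17) and 10.6 kb (2.17) from its start. Among WT-specific regions the tallest lay in the Cxcl12 window, 22.1 kb downstream of the gene start, at 1.04 and 1.25. Near Ccl5 a WT-specific region stood at 0.895 and 0.532, and near Ccl22 and Ccl17 at 0.362 and 0.307 and at 0.852 and 0.716. IRF8KO-specific ones stood at 0.546 and 0.831 near Cxcl14, 0.419 and 0.815 in the long annotated Ccl1 gene, and 0.406 and 0.680 near Ccl24.

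Regions at receptor genes of the members were measured in the same way, and a few are given here. Near Cxcr6, receptor of Cxcl16, a region at 9.17 kb measured 1.81 and 1.33 in WT and 0.470 and 0.740 in IRF8KO (log2 difference -1.09, SE 0.25, adjusted p = 0.000312, limma). Higher were a region at -5.18 kb from Ccr3 (log2 difference 2.11, adjusted p = 9.27e-08, limma) and one at the start of Cxcr3 (log2 difference 0.75, adjusted p = 0.0132).

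The sort was checked by strict peaks within 1 kb of the starts of marker genes. Of 7 microglia markers 7 were marked in each WT library and 6 in each IRF8KO library, the exception being Sall1. Of 5 neutrophil markers S100a8 alone was marked, in 3 libraries, and S100a9, Ltf, Elane and Ly6g were marked in none. Of 4 border macrophage markers Mrc1 was marked in all libraries, Ms4a7 in both IRF8KO libraries only, and Lyve1 and Cd163 in none. Of 3 monocyte markers Chil3 was marked in IRF8KO replicate 2, and Ly6c2 and Ccr2 in none. Markers of astrocytes, oligodendrocytes, neurons, endothelium and lymphocytes were marked at 0 to 2 genes of 3 or 4 in every library. The part of such cells in the chemokine differences was not tested. A peak height over a mixture does not tell fewer cells of a type from less accessibility per cell.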

How the data were processed

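ATAC-seq was carried out on 4 libraries of sorted microglia. Per the submitters' processing notes, bcl2fastq, Bowtie2, MACS2 2.1.1.20160309 and deepTools were used with the mm10 build. Per the file headers, peaks were called in each library separately, without a control, with a p cutoff of 0.01 and with cut sites moved by -37 bp and extended to 73 bp, which suits Tn5 data. The deposited pileup is a signal (depth of extended cut sites), not scaled for depth. Fold enrichment, as deposited, is a ratio of pileup to local background. The deposited p and q are −log10 values; the headers describe q as not calculated, but the column held values, which were used. Thresholds on q move with depth.

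Intervals were reduced to distinct peaks. Strict peaks were merged by at least 1 bp of overlap, annotated with GENCODE M21 on GRCm38 (equivalent to mm10), and fitted with limma 3.58.1 (R 4.3.3, eBayes with a variance trend) on log2 pileup per 1000000 tags (ppm), centred on each library's median. The fit was run on data simulated with normal noise of the spread that it had itself estimated. Such data cannot show effects of depth or of dependence between libraries. Local background was (pileup + 1) / fold enrichment - 1. Sequences were read from the RefSeq GRCm38 genome.

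The members and lists were chosen with earlier results of these data known. Named regions were each member's promoter, every called or specific region and the tallest region; others named were added after their values were seen. Of other genes, at most 5 per direction were named, by size. Alternatives were other thresholds, windows, overlaps, centring, filters, a pseudocount, fold enrichment, no variance trend, a replicate block and leaving out each library. Some receptor results are not reported here.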

Additional observations from a re-analysis of the deposited data

How the results depend on the processing

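The promoter regions of Cxcl16 and Ccl6 and the regions Ccl6 -2.8 kb and Cxcl2 -9.4 kb kept their direction and stayed called in all 11 alternatives run on them. At a −log10 q of 5, WT-specific chemokine regions numbered 0. With 5 kb on each side, IRF8KO-specific regions numbered 1 and higher ones 3, since fewer regions are then counted. Higher regions numbered 3 without centring and 2 with fold enrichment as the height. Over all regions, fold enrichment gave 4571 lower and 5318 higher, and leaving out 1 library gave 4854 to 5252 lower and 4839 to 5976 higher. The strict peak difference was 1.5 with an equal height threshold in every library and -2 with all listed peaks, and the cause was not tested. Leaving out 1 library gave a strict peak difference of 2 to 4, 1 to 4 WT-specific, 4 to 9 IRF8KO-specific, 3 to 6 lower and 4 to 6 higher regions. A genotype left with 1 library is assumed to vary like the other. Weak peaks near the lowest listed height are limited by depth, which differed 1.51 times between genotypes.

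With the replicate number as a block, 7 chemokine regions were lower and 5 higher, as without the replicate block. Deviations from the genotype means of libraries with the same number correlated at 0.0044 over the fitted regions, and the labels do not say that the numbers pair libraries.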
